A study of Mus musculus with 3 samples.

Results

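The neurotrophin and GDNF family receptors were followed here as 9 genes, chosen by name: the receptors Ntrk2, Ntrk3, Ngfr and Ret, the co-receptors Gfra1, Gfra2 and Gfra3, and the ligands Bdnf and Gdnf. All 9 had a row among the 31053 genes of the count matrices. The data were single cells of the L3 and L4 dorsal root ganglia (DRG) of male C57BL/6J mice aged 13 weeks. They comprised 1 library of naïve, untreated mice, 1 library 7 days after spared nerve injury (SNI) on both sides and 1 library 14 days after the same injury. Each library pooled the 8 ganglia of 2 mice, so a condition had no replicate, no test between conditions was possible, and every interval below is a 95% interval for counting error only.

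Neurotrophins signal through Trk receptor kinases and the shared receptor p75, whereas the GDNF family signals through the receptor kinase Ret together with a GFRα co-receptor that binds the ligand. In the DRG these receptors sort sensory neurons into types, and satellite glial cells (SGCs), which wrap the neuronal cell bodies, and Schwann cells, which wrap the axons, carry receptors of both families. TrkB, from Ntrk2, binds BDNF and exists in a full-length form and in truncated forms without the kinase. TrkC, from Ntrk3, binds NT-3, and p75, from Ngfr, binds all neurotrophins. GFRα1, GFRα2 and GFRα3 prefer GDNF, neurturin and artemin.

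Cells needed 500 genes, no more than 20% mitochondrial UMIs and no doublet call. The naïve library kept 3123, the 7-day library 2650 and the 14-day library 3799 cells, with median depths of 3059, 3972 and 4174 UMIs (unique molecular identifiers, each 1 captured mRNA molecule). Pairs of libraries shared between 1 and 6 cell barcodes. Clusters were named from marker genes that held no member, and in each of the 10 named classes every marker was detected in every library. Levels are given as CPM, the UMIs of a gene scaled to 1000000 UMIs of the class, and a class name such as SGC means cells that carry those markers. A cluster of 339 cells was left unnamed, since only 3 markers of a class stood out in it and none was among its 10 leading genes. It was led by Runx2 and Pou3f1, and is called Runx2- and Pou3f1-led glia. The name does not mean that each cell held both genes. A Runx2 UMI was found in 14.3% of its naïve, 8.96% of its 7-day and 30.1% of its 14-day cells. At 14 days 211 of its 241 Runx2 UMIs, but 79 of its 756 Pou3f1 UMIs, lay in 43 of its 146 cells, described below as a finer cluster. Of the neurons, 153 of the 229 at 7 days, 8 of the 131 naïve and 13 of the 148 at 14 days were in a cluster led by Serpinb1a, whose median depth at 7 days was 1380 UMIs, which brought the median of all 7-day neurons to 1963 UMIs against 55695 in naïve and 78022 at 14 days. Shares of neurons with a UMI therefore cannot be compared across the libraries, and CPM is used for them.

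The members divided into genes read almost wholly from neurons and genes shared with glia. Of the UMIs of a gene in a library, neurons held 97.8 to 98.8% for Ret, 98.0 to 98.99% for Bdnf and 94.8 to 97.8% for Gfra3, although they were 3.90 to 8.64% of the cells. Ntrk2 lay mainly in SGCs, with 62.9 to 74.2% of its UMIs, beside 17.9 to 24.1% of the cells. Gfra1 lay mainly in myelinating Schwann cells, with 57.4 to 62.9% of its UMIs, but these were 42.4 to 43.0% of the cells. By CPM pooled over the libraries, Gfra1 was highest in fibroblasts, at 152 CPM. Macrophages, which should lack these receptors, had 3.03 to 11.1 CPM of Ntrk2, 6.14 to 20.2 CPM of Gfra2 and at most 6.14 CPM of each other member, and levels in that range are read as background. These shares depend on how many cells of each type survived dissociation.

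**Figure D1:**
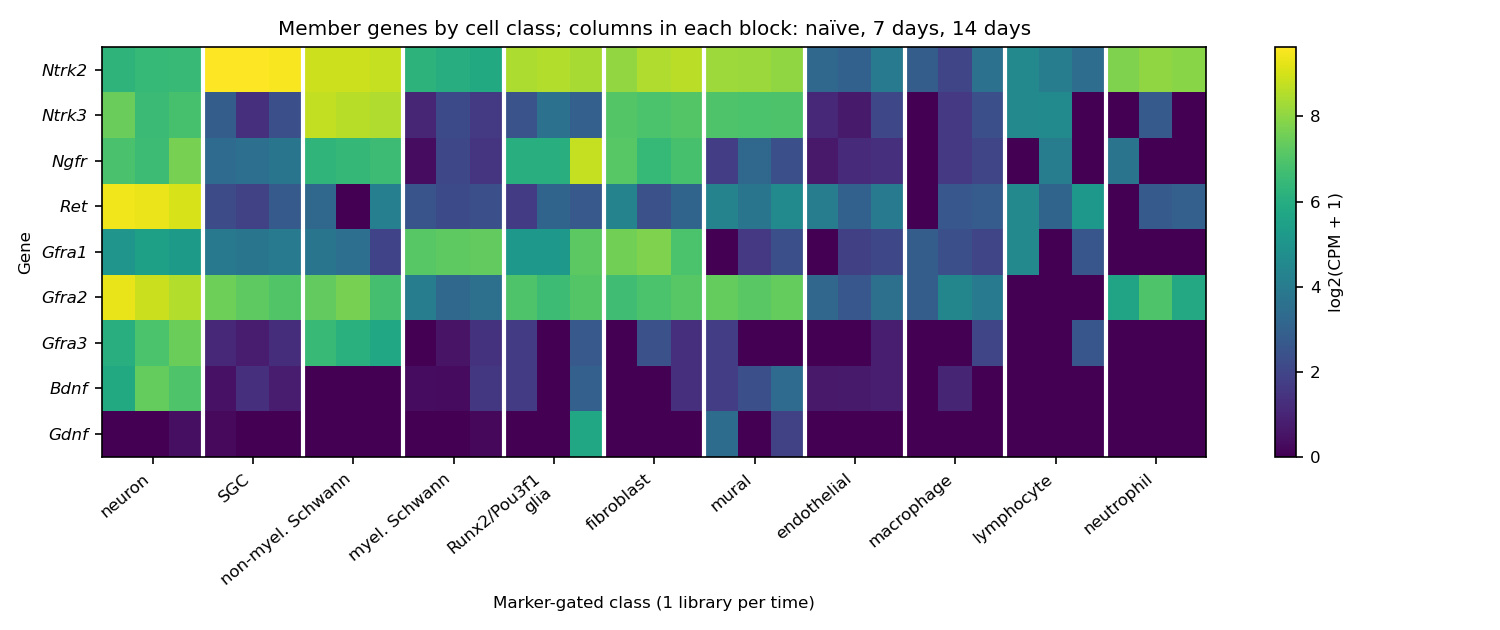
Level of each member as log2(CPM + 1) (color) by cell class and library, with 3 columns per class for naïve, 7 days and 14 days. Ret, Gfra3 and Bdnf were high in neurons, Ntrk2 in SGCs, and Gdnf reached 52.6 CPM in the Runx2- and Pou3f1-led glia at 14 days.

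Ntrk2 was the main receptor of SGCs and differed little after injury. Its level was 794 CPM in naïve (95% interval 769 to 818), 777 at 7 days (750 to 804) and 751 at 14 days (729 to 774). The ratio to naïve was 0.979 at 7 days (0.934 to 1.03) and 0.946 at 14 days (0.906 to 0.988). A UMI was found in 90.2% of naïve SGCs, 96.0% at 7 days and 95.9% at 14 days, and after each cell was thinned to 2000 UMIs the shares were 74.0%, 73.9% and 73.5%. The thinned shares thus lay closer together than the raw ones, in which the shallower naïve cells were lower. With a stricter filter, which asked for 1000 genes and allowed 10% mitochondrial UMIs, the 14-day log2 ratio was -1.001, but the class then held 39 cells at 14 days, 6 of them SGCs of the wider filter and 29 from the Runx2- and Pou3f1-led glia. Gfra2, the neurturin co-receptor, was the other member above 100 CPM in SGCs. It stood at 179 CPM in naïve, 151 at 7 days and 128 at 14 days, and was lower than naïve by a ratio of 0.846 at 7 days (0.763 to 0.937) and of 0.715 at 14 days (0.648 to 0.790). SGCs held little of the other members, with Ngfr at 9.44 to 12.4 CPM, Ret at 2.65 to 5.67 CPM and Gfra1 at 12.3 to 14.7 CPM.

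The counts are per gene and do not separate full-length from truncated TrkB. In the GENCODE vM21 annotation of GRCm38, the assembly also called mm10, Ntrk2 lies on the plus strand of chromosome 13 from 58806569 to 59133970 and has 7 protein-coding transcripts with 6 different 3′ ends. Gene models overlap it, 1 on the same strand and 3 on the other. Ntrk3, on the minus strand of chromosome 7 from 78175959 to 78738012, has 6 coding transcripts with 6 different 3′ ends and 4 overlapping models. Gfra1 and Bdnf each overlap 1 antisense model, and whether counting used strand is not given in the sources used here. Ngfr, Ret, Gfra2, Gfra3 and Gdnf overlap no other gene.

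Schwann cells differed by class. Non-myelinating Schwann cells carried Ntrk2 at 473, 482 and 440 CPM in naïve, 7 days and 14 days and Ntrk3 at 428, 392 and 353 CPM. For Ntrk3 the ratio to naïve was 0.916 at 7 days (0.670 to 1.25) and 0.826 at 14 days (0.632 to 1.08), so neither interval excluded 1. This ratio depended on where the class was drawn. At a coarser clustering (resolution 0.5) 43 cells of the Runx2- and Pou3f1-led glia joined the class at 14 days, Ntrk3 stood at 398, 355 and 206 CPM, and the 14-day log2 ratio was -0.95 in place of -0.28. The class as first drawn held Gfra3 at 90.5, 68.8 and 53.2 CPM, from only 22, 13 and 19 UMIs, which made it the one named non-neuronal class in which the artemin co-receptor stood above 20 CPM. Myelinating Schwann cells had Ntrk2 at 56.9 to 74.1 CPM and Ntrk3 at 1.03 to 3.46 CPM. Their leading member was Gfra1, the GDNF co-receptor, at 138 CPM in naïve, 151 at 7 days and 157 at 14 days, with a ratio of 1.09 at 7 days (0.973 to 1.22) and 1.14 at 14 days (1.02 to 1.27). Ret, the signalling partner of Gfra1, was at 3.46 to 4.63 CPM in these cells, within the range seen in macrophages.

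Fibroblasts and mural cells of the vessel wall shared Ntrk2, Ntrk3 and Gfra2 but not Gfra1 and Ngfr. Ntrk2 in fibroblasts was 265 CPM in naïve, 357 at 7 days and 398 at 14 days, with a ratio at 14 days of 1.502 (1.08 to 2.13). Ntrk3 in fibroblasts was 120 to 133 CPM and Gfra2 101 to 138 CPM. Gfra1 in fibroblasts was 189, 215 and 120 CPM, and Ngfr was 139, 85.9 and 114 CPM. These values rest on 64, 56 and 142 cells. Mural cells had Ntrk2 at 262 to 296 CPM, Ntrk3 at 119 to 126 CPM and Gfra2 at 144 to 162 CPM, with the 3 libraries close together, and no more than 4.04 CPM of Gfra1 and 8.22 CPM of Ngfr. Neutrophils listed Ntrk2 at 216 to 259 CPM, but in only 2 to 7 cells of a library, and the SGC marker Fabp7 stood at 3162 to 4979 CPM in the same cluster; how far SGC transcripts made up that Ntrk2 was not tested.

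Neurons had the widest range of members. Ret was at 683 CPM in naïve, 647 at 7 days and 534 at 14 days, and Gfra2 at 644, 467 and 372 CPM. Gfra3 was at 64.6, 118 and 176 CPM, 2.73 times the naïve level at 14 days (2.48 to 3.00), and Bdnf at 56.3, 163 and 125 CPM, 2.90 times naïve at 7 days (2.60 to 3.23) and 2.23 times at 14 days (2.01 to 2.47). Ntrk3 was at 173, 93.7 and 112 CPM and Ngfr at 116, 96.8 and 202 CPM. Ntrk2 and Gfra1 stood at 75.8 to 91.3 and 31.6 to 43.7 CPM. Of the 8 members with at least 20 UMIs, 1 at 7 days (Bdnf) and 2 at 14 days (Gfra3 and Bdnf) were at least 2-fold from naïve with an interval that excluded 1; over all genes of neurons, 5.5% at 7 days and 7.27% at 14 days met the same rule. The members had a median log2 ratio of 0.051 at 7 days, beside 0.029 over all genes, and of 0.25 at 14 days, beside 0.089 over all genes. For Bdnf at 7 days the log2 ratio was 1.53, and it was 1.22 without the cell with the most Bdnf. For Gfra3 at 14 days it was 1.45, and 0.67 with the stricter filter, which kept 90 naïve neurons and 79 at 14 days.

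The makeup of the sampled neurons differed between the libraries, which bears on each of these values. Each neuron was given the type with the highest summed marker CPM. Th-type cells, which correspond to low-threshold C-fibres by their marker, were 34 of the 131 naïve neurons, 10 of 229 at 7 days (4.37%, 2.11 to 7.88) and 15 of 148 at 14 days (10.1%, 5.78 to 16.2). Tac1-type cells, which are peptidergic by their markers, were 35.1%, 18.8% and 50.7%. Over the 3 libraries, 106 Tac1-type cells shared a cluster led by Th and Pcp4 with 56 Th-type cells. Another 21 Tac1-type cells lay in the cluster led by Sprr1a and Atf3 described below. Mrgprd-type cells were 29.0%, 52.8% and 21.6%, and 105 of the 191 came from the shallow Serpinb1a-led cluster. Pooled CPM weights cells by their UMIs, so shallow cells add little to it. Mrgprd-type cells held 3429205 of the 8509098 neuron UMIs in naïve and 2418819 of 6614652 at 7 days. Tac1-type cells held 2311648 and 2153721 of the same totals. At 7 days the shares of cells of these types thus moved in the opposite direction to their shares of UMIs. Where each type was given equal weight, the log2 ratio of Gfra2 to naïve was -0.026 at 7 days and -0.027 at 14 days, in place of -0.46 and -0.79, and that of Ret was 0.22 and 0.11 in place of -0.079 and -0.35. Equal weight lets the 12, 27 and 25 Nefh-type cells count as much as each other type. Ret in the Nefh-type was 128, 393 and 367 CPM. Of the other types, only the Th-type had Ret above naïve at 14 days. The same weighting gave 0.26 and 0.72 for Gfra3 in place of 0.87 and 1.45, and 0.96 and 0.45 for Bdnf in place of 1.53 and 1.16, so neither gene reached 2-fold at either time.

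In the Mrgprd- and Th-types, which held most of both, Ret and Gfra2 were near the naïve level. Gfra2 was lower in the Nefh-type at both times and in the Tac1-type at 14 days. In Mrgprd-type neurons, the nonpeptidergic nociceptors, Ret was 818 CPM in naïve, 850 at 7 days and 767 at 14 days, and Gfra2 was 754, 728 and 665 CPM. In Th-type neurons Ret was 865, 807 and 882 CPM and Gfra2 was 1026, 1061 and 1209 CPM. The 7-day Th-type value came from 10 cells. In Tac1-type neurons Gfra2 was 168, 165 and 74.7 CPM, a ratio of 0.980 at 7 days (0.846 to 1.13) and 0.444 at 14 days (0.386 to 0.511). These cells were uneven, as 1 cell held 106 of the 389 UMIs in naïve and 1 held 202 of the 423 at 14 days. In Nefh-type neurons Gfra2 was 52.2, 10.8 and 14.5 CPM, from 18, 12 and 27 UMIs, ratios of 0.206 at 7 days (0.0907 to 0.453) and 0.277 at 14 days (0.147 to 0.534). Th-type neurons also had the highest Ntrk3 of the types, at 415, 349 and 457 CPM, and Bdnf at only 1.65 to 5.84 CPM. Gfra1 was highest in Mrgprd-type neurons, at 57.7, 74.4 and 56.8 CPM, whereas Ngfr in them did not exceed 3.72 CPM.

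**Figure D2:**
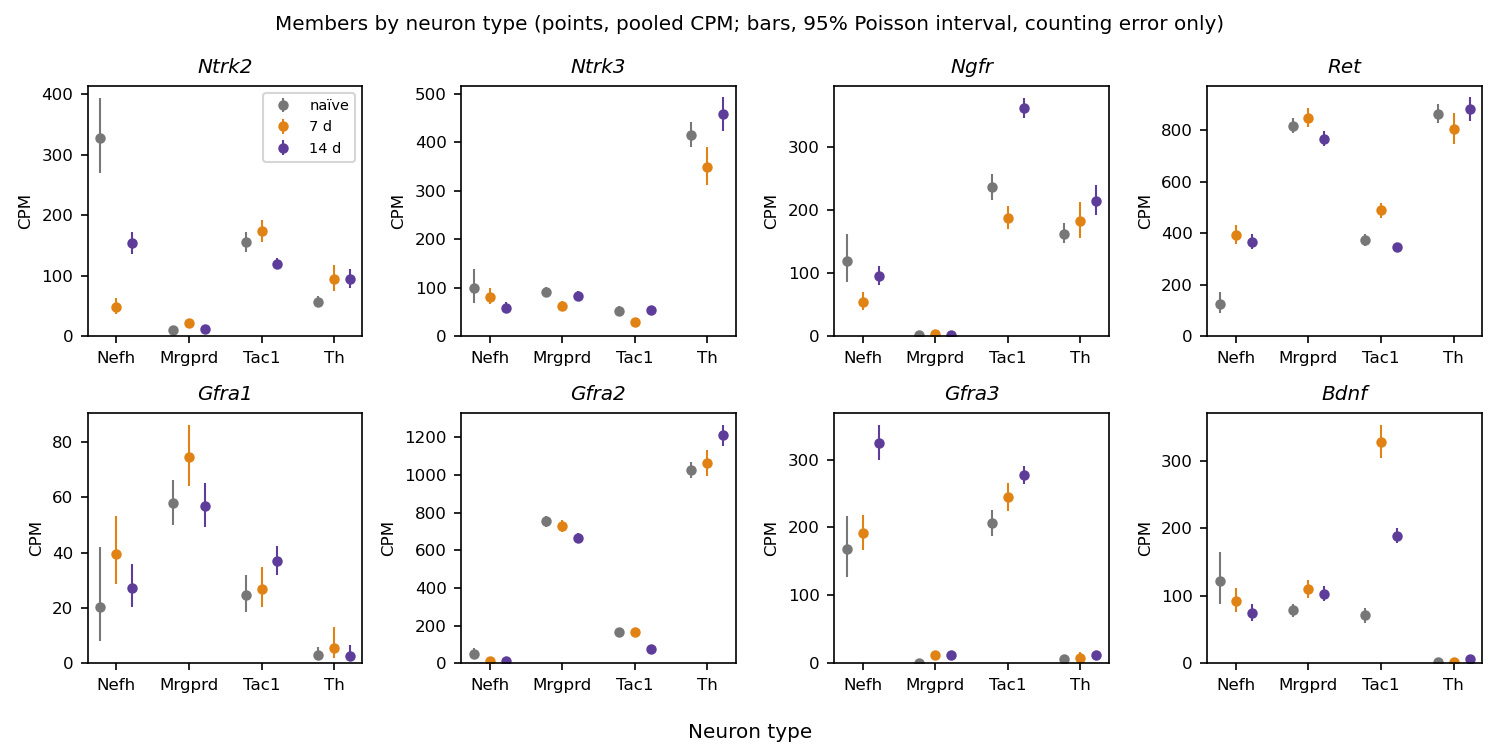
Level of 8 members (CPM, pooled over cells) in each neuron type, with gray, orange and purple points for naïve, 7 days and 14 days and bars for the 95% Poisson interval. Ret and Gfra2 stood highest in the Mrgprd- and Th-types in each library, and Bdnf in the Tac1-type went from 70.9 CPM in naïve to 328 at 7 days.

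Tac1-type neurons held the largest difference of Bdnf, the TrkB ligand. It was 70.9 CPM in naïve, 328 at 7 days and 189 at 14 days, a ratio of 4.62 at 7 days (3.89 to 5.51) and of 2.66 at 14 days (2.25 to 3.15). The cells were uneven: 21 of 43 at 7 days had a Bdnf UMI, and 1 of them held 271 of the 706 UMIs. Without the cell with the most Bdnf in each library, the ratio was 3.54 at 7 days (2.92 to 4.31) and 2.76 at 14 days (2.31 to 3.32). Mrgprd-type neurons had 78.4, 110 and 103 CPM. Ngfr in Tac1-type neurons was 236, 187 and 361 CPM and Gfra3 was 206, 244 and 277 CPM. When each marker was first divided by its mean and only neurons of at least 5000 UMIs with at least 3 markers of the type were used, Bdnf in the Tac1-type was 44.0, 366 and 224 CPM and Ngfr 295, 258 and 400 CPM, but Gfra3 was 359, 333 and 332 CPM, so the higher Gfra3 at 14 days was not seen with that definition.

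Nefh-type neurons, marked by a neurofilament of large cells, were few, with 12, 27 and 25 cells, and 23 of the 64 lay in a cluster led by Sprr1a and Atf3. Ntrk2 in them was 328, 48.5 and 154 CPM, Ret was 128, 393 and 367 CPM, and Gfra3 was 168, 191 and 324 CPM. The naïve Ntrk2 came from 6 cells and the naïve Gfra3 from 2 cells, so the spread between cells is not covered by the interval.

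The cluster led by Sprr1a and Atf3, genes known for their induction in axotomized neurons, held 2 naïve neurons, 16 at 7 days and 29 at 14 days. Its Atf3 level was 906 CPM at 7 days and 457 CPM at 14 days. Gfra3 was 332 CPM in this cluster at 7 days against 76.2 CPM in the other neurons of at least 5000 UMIs, a ratio of 4.36 (3.77 to 5.04), and 433 against 110 CPM at 14 days, a ratio of 3.96 (3.64 to 4.30). A Gfra3 UMI was found in 14 of the 16 cells and in 27 of the 29 cells. Gfra2 was nearly lacking, at 7.46 CPM against 564 at 7 days and 9.16 CPM against 466 at 14 days, ratios of 0.013 (0.0057 to 0.026) and 0.020 (0.013 to 0.029). Ret was 475 CPM against 687 at 7 days and 441 against 560 at 14 days. Ntrk3 was lower in the cluster, 48.5 against 105 CPM at 7 days and 39.7 against 132 CPM at 14 days. Bdnf was 48.5 against 190 CPM at 7 days and 130 against 124 CPM at 14 days, so its order was not the same at both times. The clusters were formed without any member, but the type each of these cells had before injury is not known, and type and injury state cannot be told apart.

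**Figure D3:**
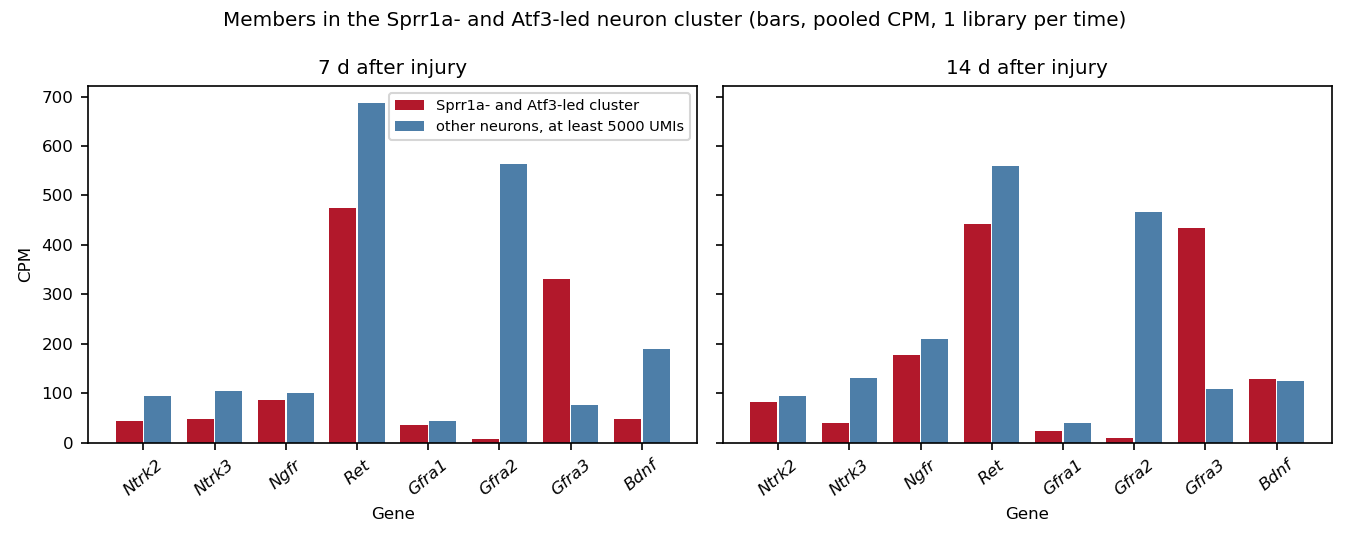
Pooled CPM of 8 members in the Sprr1a- and Atf3-led neuron cluster (red bars) and in the other neurons of at least 5000 UMIs (blue bars) at 7 and 14 days after SNI. Gfra3 was higher and Gfra2 lower in the cluster at both times.

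A plain split of the neurons by a UMI of Atf3 or Sprr1a gave a weaker contrast for Gfra3 and another order for Ngfr. At 14 days 75 neurons had such a UMI and 73 had none, with median depths of 93815 and 52858 UMIs. Gfra3 was 221 CPM in the former and 103 CPM in the latter, and Ngfr was 143 and 298 CPM. At 7 days 158 neurons had such a UMI and 71 had none, with median depths of 2014 and 1650 UMIs; Gfra3 was 130 and 86.3 CPM, whereas Ngfr was 106 and 70.2 CPM, the opposite order to that at 14 days. Ntrk2 was lower with the UMI at both times, 57.4 against 166 CPM and 83.7 against 104 CPM.

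In the Runx2- and Pou3f1-led glia 3 members stood well above naïve at 14 days. Ngfr in them was 64.2 CPM in naïve, 65.0 at 7 days and 436 at 14 days, from 28, 17 and 323 UMIs, a ratio to naïve of 1.01 at 7 days (0.520 to 1.92) and 6.79 at 14 days (4.61 to 10.4). Gfra1 was 34.4, 34.4 and 148 CPM, a ratio of 4.31 at 14 days (2.51 to 7.97). Gdnf, the ligand of Gfra1 and Ret, had 0 UMIs in naïve, 0 at 7 days and 39 at 14 days, or 52.6 CPM, at least 7.65-fold above the level that 3 counts would give in the naïve cells. These 3 passed the 2-fold rule at 14 days, where 6.5% of all genes did, but Gfra1 and Gdnf had enough UMIs for the rule mainly through the 14-day cells in which they were high, so nothing is read from their number. At 7 days 0 of 4 members passed, where 3.12% of all genes did. Ntrk2 in the same cells was 348, 371 and 326 CPM and Gfra2 was 126, 95.6 and 133 CPM.

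**Figure D4:**
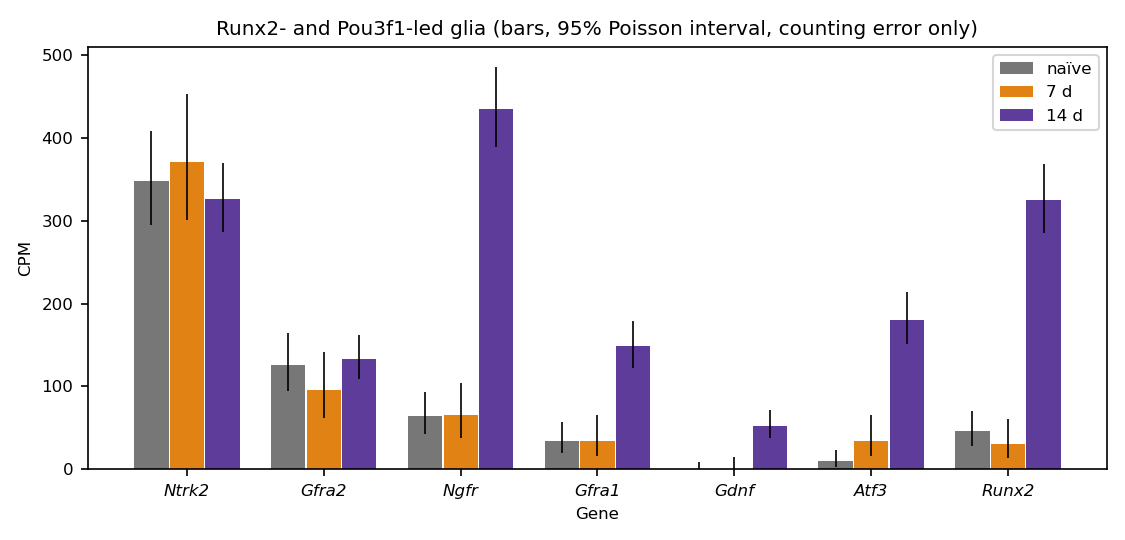
Level (CPM, bars with 95% Poisson intervals) of 5 members and of Atf3 and Runx2 in the Runx2- and Pou3f1-led glia of the naïve (gray), 7-day (orange) and 14-day (purple) libraries. Ngfr, Gfra1, Gdnf, Atf3 and Runx2 were higher at 14 days, and Ntrk2 stood at 326 to 371 CPM throughout. At 14 days 211 of the 241 Runx2 UMIs and 125 of the 134 Atf3 UMIs lay in 43 of the 146 cells.

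Of the 51 Gdnf UMIs in all analysed cells, 39 lay in 14 of the 146 cells of this cluster at 14 days, with up to 12 in 1 cell. The class name of these cells depended on the setting: all 14 were in the class named non-myelinating Schwann cells at resolutions 0.5 and 2, 13 with every deposited barcode and 9 when cells were classed by their own markers, and the 8 that passed the stricter filter were in the class named SGC. The 14 cells had Ngfr at 1505 CPM, found in 92.9% of them, and Gfra1 at 476 CPM, while Ret had 0 UMIs in them. Gfra1 was found in 7 of the 14, and 1 cell held 30 of its 50 UMIs. The other 132 cells of the cluster at 14 days had Ngfr at 259 CPM and Gfra1 at 94.3 CPM. They were shallower, with a median depth of 3958.5 UMIs against 6964.5 in the 14 cells. At a finer clustering (resolution 2) all 14 fell in a cluster of 53 cells led by Tnc, Timp1, Btc and Cxcl14, with 5 naïve cells, 5 at 7 days and 43 at 14 days, all of which came from the Runx2- and Pou3f1-led glia. There Ngfr was 106, 283 and 1086 CPM, from 2, 6 and 297 UMIs. Jun, the repair-associated transcription factor of Schwann cells, was 264, 565 and 771 CPM at the same times, from 5, 12 and 211 UMIs. Within the finer cluster Ngfr at 14 days was 10.3 times naïve (2.82 to 85.3) and 3.84 times the 7-day level (1.74 to 10.5). Gfra1 there was 158, 283 and 318 CPM, from 3, 6 and 87 UMIs, a ratio at 14 days of 2.01 (0.665 to 9.92). Of the 87 UMIs, 30 were in 1 cell. Gdnf there was 143 CPM at 14 days, 0.900 times the level that 3 counts would give in the 5 naïve cells. Its count of 0 in those few cells therefore cannot be read as a lower level. The Runx2- and Pou3f1-led cells outside the finer cluster had Ngfr at 62.3, 45.8 and 55.6 CPM, a ratio at 14 days of 0.892 (0.498 to 1.60). For Gfra1 that ratio was 1.71 (0.816 to 3.77). The finer cluster thus differed in both its number of cells and its Ngfr level, and with 1 library per time neither can be told apart from the library. Outside this glial cluster, the remaining Gdnf UMIs were 4 in mural cells and 1 in an SGC of the naïve library, and 4 in neurons, 2 in mural cells and 1 in a myelinating Schwann cell at 14 days; the 7-day library had 0 in all 2650 cells, which by 3 counts allows a share of cells with a UMI, not of cells expressing the gene, of up to 0.113%.

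In the other glia the 2-fold rule gave few members. In SGCs 1 of 6 members passed at 7 days (Ntrk3, 31 UMIs in naïve and 6 at 7 days) against 1.38% of all genes, and 0 of 6 at 14 days against 2.71%. In non-myelinating Schwann cells 0 of 5 passed at either time, against 3.16% and 4.11% of all genes. In myelinating Schwann cells 1 of 5 passed at 7 days (Ntrk3, 4 UMIs in naïve and 16 at 7 days) against 1.57%, and 0 of 4 at 14 days against 2.21%. Ntrk3 in SGCs and myelinating Schwann cells was at 1.03 to 6.10 CPM, beside 0 to 4.05 CPM in macrophages. In non-myelinating Schwann cells the 14-day count was 4 where the class took in the 43 cells above. The share of all genes past the rule is not given for the class drawn that way, so nothing is read from this count.

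**Figure D5:**
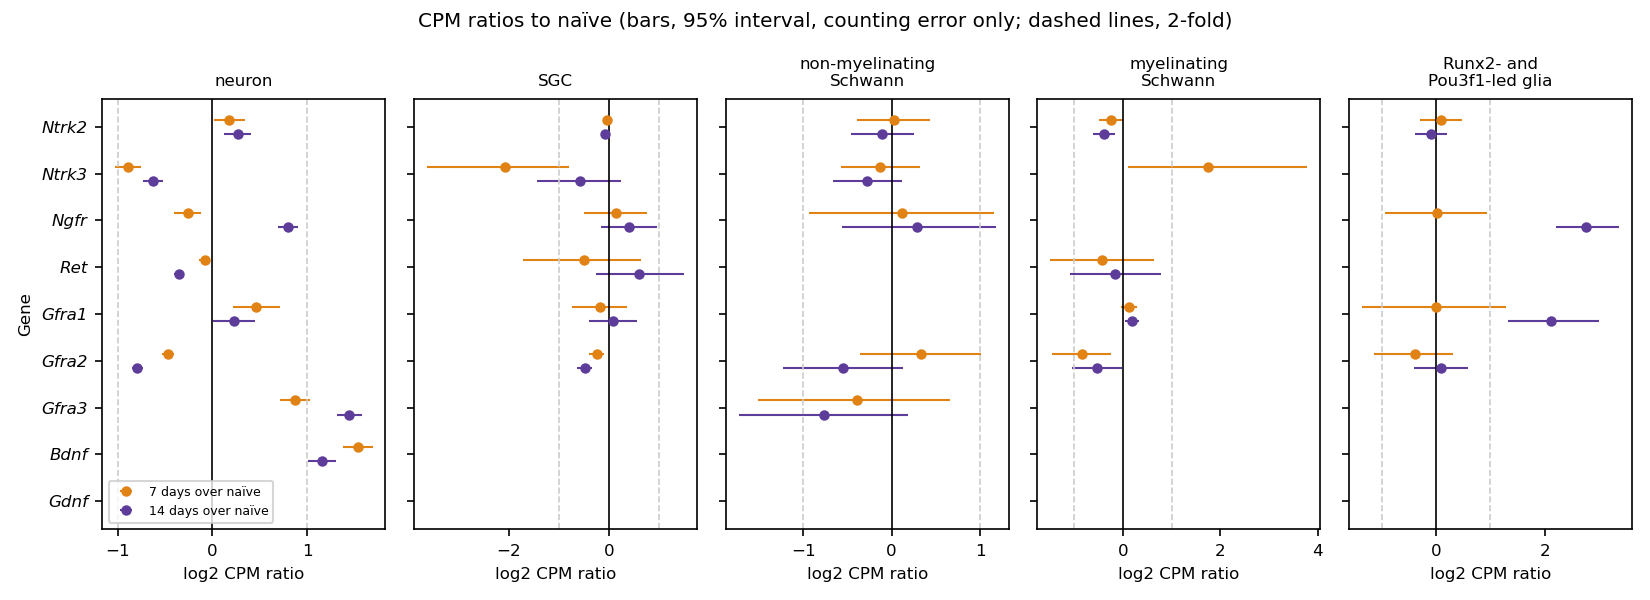
Log2 ratio of CPM to naïve for each member with at least 20 UMIs in a class, at 7 days (orange) and 14 days (purple), with 95% counting intervals and dashed lines at 2-fold. Most glial values lay near 0, Gfra3 and Bdnf were to the right in neurons, and Ngfr and Gfra1 were to the right in the Runx2- and Pou3f1-led glia at 14 days; Gdnf has no point because its naïve count there was 0.

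In the Runx2- and Pou3f1-led glia taken whole, Ngfr, Gfra1 and Gdnf stood above naïve at 14 days, and Bdnf was higher in pooled neurons. Within the finer cluster the Gfra1 interval included 1, and the naïve Gdnf count of 0 could not be read as lower. The 250 bases before the RefSeq transcription starts of Ngfr, Gfra1, Gdnf and Bdnf are shown (GRCm38.p6). The motifs searched on both strands were AP-1 (TGANTCA), CRE (TGACGTCA) and the GC box (GGGCGG), and matches are in capitals. The AP-1 pattern allowed any base at N and so was looser than the usual AP-1 site, TGACTCA or TGAGTCA. Of the 32851 promoters of the table, 6.75% held the AP-1 letters, 1.55% the CRE letters and 32.7% the GC box. The promoters of Gdnf and Gfra1 held none of these motifs in the window, that of Ngfr held 4 GC boxes, and of the 7 Bdnf promoters 1 held an AP-1 match, 152 bases before its start, with 2 GC boxes. That match reads TGAATCA and is not the usual AP-1 site. The Gdnf promoters lie at chr15:7809798-7810047 and chr15:7813477-7813726 on the plus strand, that of Gfra1 at chr19:58455399-58455648 and that of Ngfr at chr11:95587699-95587948 on the minus strand, and the Bdnf promoter with the AP-1 match at chr2:109676782-109677031 on the plus strand. For both Gdnf starts, 0 transcripts of the GENCODE vM21 annotation held the bases just after the start. In that annotation the Gdnf gene begins at 7810846, so both Gdnf windows rest on RefSeq alone. A match describes the letters and is not shown to be a site in use.
Gdnf, promoter at 7809798: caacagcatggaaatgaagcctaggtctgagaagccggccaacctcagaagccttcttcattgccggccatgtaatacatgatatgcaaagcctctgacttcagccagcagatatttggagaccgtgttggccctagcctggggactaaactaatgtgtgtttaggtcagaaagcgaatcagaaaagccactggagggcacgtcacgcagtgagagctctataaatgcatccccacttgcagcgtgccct
Gdnf, promoter at 7813477: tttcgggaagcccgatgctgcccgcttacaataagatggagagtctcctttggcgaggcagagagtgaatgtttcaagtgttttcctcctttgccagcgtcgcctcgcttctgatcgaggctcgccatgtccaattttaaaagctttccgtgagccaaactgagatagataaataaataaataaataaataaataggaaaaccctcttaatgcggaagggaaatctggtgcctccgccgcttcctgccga
Gfra1: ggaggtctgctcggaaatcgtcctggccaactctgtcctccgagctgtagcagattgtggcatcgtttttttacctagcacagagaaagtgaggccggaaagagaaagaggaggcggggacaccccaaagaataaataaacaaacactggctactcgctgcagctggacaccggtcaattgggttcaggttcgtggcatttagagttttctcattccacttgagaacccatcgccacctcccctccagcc
Ngfr: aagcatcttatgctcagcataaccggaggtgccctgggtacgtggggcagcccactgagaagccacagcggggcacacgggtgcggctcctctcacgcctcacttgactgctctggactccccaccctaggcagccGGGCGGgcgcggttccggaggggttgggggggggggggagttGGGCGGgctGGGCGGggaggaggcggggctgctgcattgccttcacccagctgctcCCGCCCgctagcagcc
Bdnf, promoter at 109676782: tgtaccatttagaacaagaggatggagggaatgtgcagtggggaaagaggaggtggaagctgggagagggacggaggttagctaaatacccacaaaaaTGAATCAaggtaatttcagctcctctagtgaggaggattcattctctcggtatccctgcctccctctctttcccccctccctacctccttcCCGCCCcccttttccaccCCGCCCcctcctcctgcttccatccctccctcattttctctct

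The other genes of both pathways, a list of 34 ligands, co-receptors, adaptors and feedback genes, mostly lay within 2-fold of naïve. In neurons 2 were higher and 1 lower by the 2-fold rule at 7 days of 23 with enough UMIs, where 5.5% of all genes passed, and 1 higher and 2 lower of 27 at 14 days, where 7.27% did. These genes were Sorcs2, Sorcs3 and Egr1 at 7 days and Ntf3, Sorcs2 and Spry2 at 14 days. Spry2, an inhibitor of receptor kinase signalling, was lower at 14 days in neurons (64.3 CPM in naïve and 23.6 at 14 days), SGCs (109 and 51.2 CPM) and myelinating Schwann cells (19.6 and 9.62 CPM). Egr1, an immediate early gene, was higher in myelinating Schwann cells, at 34.5 CPM in naïve, 70.7 at 7 days and 77.7 at 14 days. At 7 days it also passed the rule in neurons and in non-myelinating Schwann cells. This gene also responds to handling of tissue, which was not tested. Among the ligands, Ntf3, which encodes NT-3, was found mainly in mural cells at 47.2 to 47.4 CPM, and Artn, which encodes artemin, had at most 4 UMIs in any class of a library among neurons, glia, fibroblasts and mural cells.

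Across 30 points (10 classes in 3 libraries), the genes whose level followed each member most closely were sought among 12713 others. The points share libraries and cell classes, so r is a description. Bdnf was followed by Oprm1, Srrm4 and Gabra2 (r from 0.948 to 0.954), Gfra3 by Tenm1, Nrn1 and Egfem1 (0.899 to 0.909), and Ret by Map2k4, Tomm70a and Myt1l (0.876 to 0.895). For Ntrk2 they were Pnmal2, Vldlr and Rarb (0.913 to 0.930), for Gfra2 Rbms3, Lsamp and Morf4l2 (0.884 to 0.941), and for Gfra1 Tnni1, Fxyd6 and Clip4 (0.782 to 0.860). Ntrk3 was followed by Flnc, Mirg and B830012L14Rik (0.835 to 0.851) and Ngfr by Plppr3, B830012L14Rik and Cobl (0.847 to 0.866).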

How the data were processed

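The deposited values are raw UMI counts made by the authors from 10x Chromium 3′ libraries, without normalization; per the labels they were made with Cell Ranger 3.0.2 on mm10, and the annotation is not given in the sources used here. Cells needed 500 genes and no more than 20% mitochondrial UMIs, Scrublet doublets (scanpy 1.11.5, expected rate 5%) were removed, and 2000 variable genes reduced to 30 components and clustered (leidenalg 0.10.2, 15 neighbours, resolution 1). Clusters needed 3 class markers, or 5 where none was among their 10 leading genes, which was decided once the clusters had been inspected. Members and pathway genes were kept out of clustering and naming.

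CPM has Poisson, shares have Clopper-Pearson and CPM ratios have exact conditional binomial intervals at 95%, which cover counting error only; a count of 0 was set against 3 counts. Libraries held 22343246 to 36550911 UMIs. The fold rule was also run on Poisson counts simulated from pooled class means. Those counts held no spread between cells, mice or libraries, so the run cannot show how the rule behaves with such spread. All 9 members were described in every class, and for each member with at least 100 UMIs the 3 genes of highest Pearson correlation of log2(CPM + 1), among those with at least 200 UMIs, were named. Members, lists and classes were chosen with earlier results of these data known. The type of each neuron was fixed as the highest plain sum of marker CPM; a scaled version was tried first, and it is given as an added alternative. The Runx2- and Pou3f1-led glia and the finer cluster in them were singled out after their values were seen, as was the search for promoter motifs.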

Additional observations from a re-analysis of the deposited data

Results flagged for a closer look

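Several members differed from naïve in opposite directions in different cell classes, each with a counting interval that excluded a ratio of 1; none of these differences between classes was tested, since each condition had 1 library. For Ntrk2 at 7 days the log2 ratio was 0.18 in neurons and -0.25 in myelinating Schwann cells, 0.43 apart. At 14 days it was 0.27 in neurons and 0.59 in fibroblasts, and -0.079 in SGCs and -0.38 in myelinating Schwann cells. Neurons then lay 0.35 from SGCs and 0.65 from myelinating Schwann cells, and fibroblasts lay 0.67 and 0.97 from the same classes. The sign in neurons was the opposite with types weighted equally, where the few Nefh-type cells count as much as each other type. Ntrk2 in the Nefh-type was 328 CPM in naïve, from 6 of 12 cells with 53 of the 113 UMIs in 1 cell. It was 48.5 CPM there at 7 days and 154 at 14 days. Ntrk2 in the Mrgprd- and Th-types stood above naïve at both times, and in the Tac1-type at 7 days only. Ntrk3 at 7 days had a log2 ratio of 1.75 in myelinating Schwann cells, from 4 and 16 UMIs, against -0.89 in neurons and -2.08 in SGCs, distances of 2.63 and 3.82. Gfra1 at 14 days was at -0.66 in fibroblasts, against 0.23 in neurons, 0.19 in myelinating Schwann cells and 2.11 in the Runx2- and Pou3f1-led glia, which were 0.89, 0.85 and 2.77 away. The neuron value was -0.11 as a mean over cells and -0.015 without the cell with the most UMIs.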

How the results depend on the processing

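No paired analysis was possible because the design holds 1 library per condition. Values are log2 ratios to naïve unless called counts of members past the 2-fold rule. The share of all genes past that rule is given for the main setting only, so nothing is read from the counts under other settings. In neurons, weighting types equally, chosen after seeing the data, gave at 7 and 14 days 0.22 and 0.11 for Ret, -0.70 and -0.53 for Ntrk2 (both genes with the opposite sign to the pooled cells), -0.026 and -0.027 for Gfra2, 0.26 and 0.72 for Gfra3, and 0.96 and 0.45 for Bdnf. This weighting let the few Nefh-type cells count as much as each other type. The mean over cells gave -0.37 and -0.016 for Ntrk2 and -0.11 for Gfra1 at 14 days, all of opposite sign, -0.25 and -0.65 for Ret, -0.65 for Gfra2 at 7 days, 0.27 and 0.94 for Gfra3, 0.88 and 1.38 for Bdnf, and 2.10 for Ngfr in the Runx2- and Pou3f1-led glia at 14 days. Without the cell with the most UMIs, Gfra1 in neurons was -0.015 at 14 days, again of opposite sign, Gfra3 1.59 at 14 days and Bdnf 1.22 at 7 days. Median-of-ratios size factors gave -0.86 for Gfra2 and -0.42 for Ret at 14 days.

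The stricter filter gave in neurons -0.061 for Ntrk2 (opposite sign), -0.41 for Gfra2, 0.67 for Gfra3 and -0.27 for Ret at 14 days, with a count of 1, and -0.26 for Gfra2, 0.31 for Gfra3 and 1.83 for Bdnf at 7 days. In the class called SGC it gave 0.29 and -1.001 for Ntrk2 with counts of 0 and 4, in non-myelinating Schwann cells 0.50 and 0.17 for Ntrk3, and in myelinating Schwann cells a count of 0 at 7 days; few SGCs passed it. For Ntrk3 in non-myelinating Schwann cells at 14 days, resolution 0.5 gave -0.95, resolution 2 -0.96, every deposited barcode -0.93 and cells classed by their own markers -1.04 (-0.66 at 7 days), each with a count of 4 at 14 days. At resolution 2 the matching cluster of 310 cells had Ngfr at -0.21 (opposite sign) and a count of 0. With every barcode the 14-day count was 1 in SGCs and 1 in myelinating Schwann cells, and the 7-day count in the latter was 0, as it was with doublets kept; by their own markers, SGCs had 0 at 7 days. Except where a cause is given by the cells that entered a class, the cause was not tested.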
